A study of Mus musculus with 18 samples.

Results

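The genes of SR proteins, snRNP proteins, the SF3A and SF3B complexes and heterogeneous nuclear ribonucleoproteins (hnRNPs) are the core of the machinery that removes introns from mouse transcripts and decides which exons are kept. They were taken here as all probe sets whose platform gene symbol begins with Srsf and a digit, Snrp, Hnrnp, Sf3a or Sf3b, which gave 49 probe sets of 49 genes among 22206 on the array. Spleens of Foxp3-YFP/Cre mice, whose Foxp3-expressing cells carry YFP and Cre, gave 3 sorted kinds of T cell: CD8+ T cells, regulatory T cells (Treg) and conventional CD4+ T cells without Foxp3 (CD4+ Tconv). All groups shared this strain, and per the methods the animals were young adults of either sex, balanced for both traits in each experiment. Each subset was cultured for 24 h with IL2 at 10 ng/ml and with small extracellular vesicles (sEVs), either from spleens of leukemic Eμ-TCL1 mice, whose B cells express a human TCL1 transgene and which model chronic lymphocytic leukemia (LME-sEVs), or from spleens of healthy controls (HCME-sEVs). The labels give 50 ug/ml of sEVs for every sample, whereas in the methods the amount depends on what each type of spleen yields, so it is not settled that doses were equal. There were 3 Clariom S arrays for each of the 6 groups, 18 in all. Whether replicates stem from different animals or cultures is not stated in the labels, so the spread behind each p-value is that of these arrays alone and may be technical. The comparison in each subset asks which of these transcripts differed between cells given leukemic and cells given control vesicles.

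Splicing is carried out by small nuclear ribonucleoproteins (snRNPs), each built on a ring of Sm proteins that wraps its RNA. The U1 snRNP marks the start of an intron and the U2 snRNP, with its SF3A and SF3B complexes, marks the branch point near its end. SR proteins bind exons and mostly favour their inclusion, while hnRNPs coat the transcript and often oppose them. In T cells, this balance is best known for Ptprc (CD45), whose variable exons are skipped after activation under the control of Hnrnpll. The 49 members comprised 10 SR proteins, 7 Sm ring proteins, 4 further proteins of U1 and U2 (Snrpa, Snrpc, Snrpa1 and Snrpb2), 9 subunits of SF3A and SF3B, and 19 hnRNPs, 1 of which (Hnrnpa1l2-ps2) is annotated as a pseudogene of the Hnrnpa1 family. Srsf7, Hnrnpa1 and Snrpn are not analysed here.

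All values are log2 signals as deposited, and a difference is always the LME mean minus the HCME mean (n = 3 each). A probe set was called at a limma p-value below 0.05 after Benjamini-Hochberg adjustment over all 22206 probe sets, fitted within a subset. Background was taken from 1429 olfactory, vomeronasal and trace amine receptor probe sets, which T cells are not known to use. Its 95th percentile was 8.80 in CD4+ Tconv, 8.08 in CD8+ T cells and 7.62 in Treg, and 31, 45 and 42 of the 49 members had a mean above it. Cd8a was above background in CD8+ T cells only, while Cd4 and Cd8b1 were above it in all 3 subsets, Cd8b1 at a mean of 9.54 and Cd4 at 10.15 in CD4+ Tconv given HCME-sEVs. Foxp3 is not analysed here, and 0 cell type marker genes were called in any subset. HCME array 3 of Treg was unlike the rest (its correlation with the other 5 averaged 0.926). In CD4+ Tconv the receptor median was 6.65 to 6.83 on HCME arrays and 6.98 to 7.13 on LME arrays, so background itself differed with treatment without overlap. In the titles all HCME arrays of CD4+ Tconv are numbered before all its LME arrays, so number order and treatment cannot be told apart there. The numbers of the treatments are interleaved in CD8+ T cells and Treg. Over the CD4+ Tconv arrays the span from receptor median to upper decile was 3.49 to 3.86 with HCME-sEVs and at most 3.20 with LME-sEVs. In bulk RNA, fewer cells of a type and less RNA per cell cannot be told apart.

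In CD4+ Tconv, most splicing transcripts had a lower signal after LME-sEVs, but none passed the test. Of the 49 members, 42 had a lower LME mean, against 42.8% of all probe sets, 71.6% of those above background and 66.6% of those of similar level, and the median difference was -0.37, against 0.07 over all probe sets. The count of members called was 0, where 1.06% of all probe sets were called by limma and 1.01% with a difference beyond 1 as well, and the lowest adjusted p of a member was 0.0769. At an unadjusted p below 0.05 there were 17 members lower and 0 higher, where 10.9% of all probe sets and 31.5% of those above background were lower and 7.86% and 5.76% higher. The arrays did not overlap, with all LME values lower, for 16 members, against 11.8% of all probe sets, 30.9% of those above background and 27.2% of those of similar level. All LME values were higher for 0 members, against 11.6% of all probe sets and 6.26% of those above background. The plot of differences by gene shows the members of each group with their intervals.

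**Figure D1:**
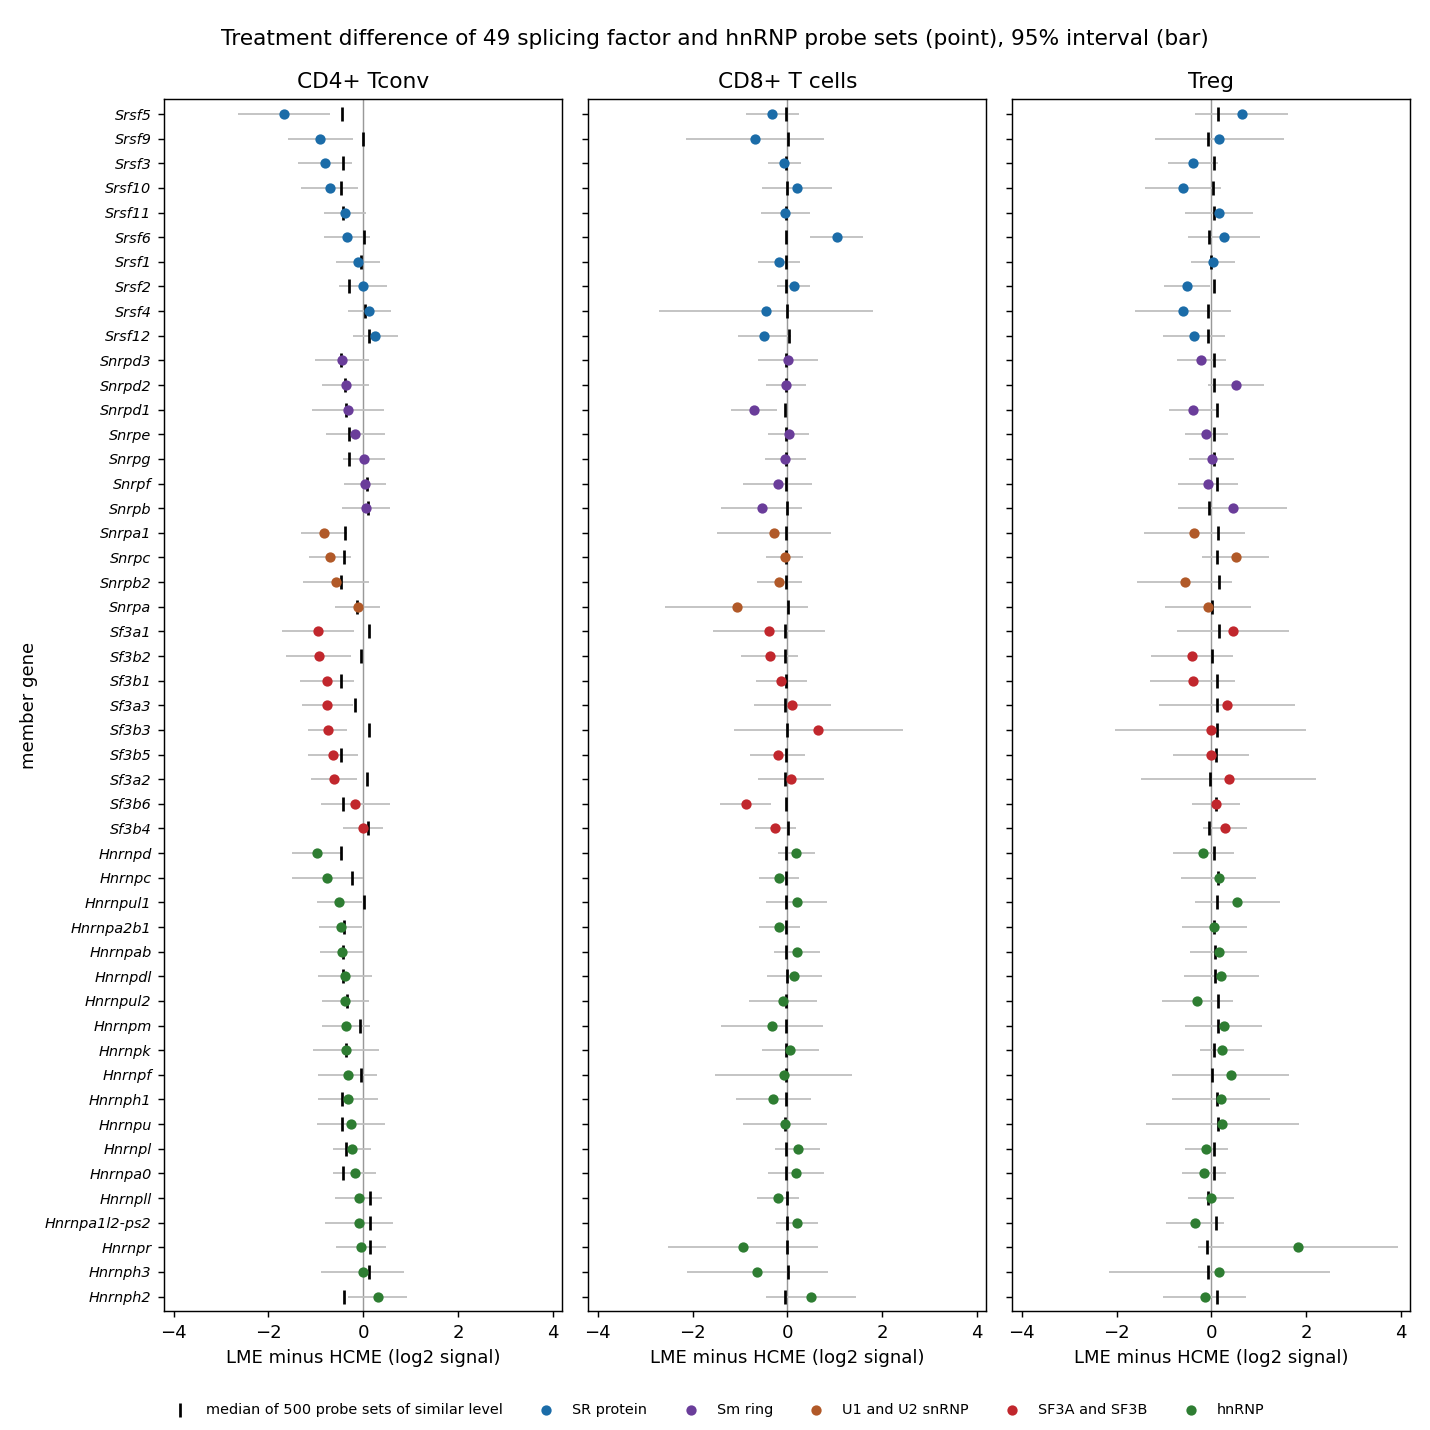
The LME minus HCME difference in log2 signal (x axis) is plotted for each of the 49 members (rows, coloured by group) in CD4+ Tconv, CD8+ T cells and Treg, with its 95% confidence interval as a grey bar (n = 3 arrays each) and the median difference of the 500 probe sets of similar level as a black tick. In CD4+ Tconv 42 points lie left of 0, and in CD8+ T cells and Treg 32 and 23 do.

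The difference varied with the level of a probe set, as the plot of difference by level shows, and each member was set against the 500 other probe sets nearest to it in mean level on the 6 arrays of the subset. In CD4+ Tconv the median of these reference values was -0.30, and members lay a median of -0.10 from them, with 31 members below and 18 above. The 31 members with a mean above background had a median difference of -0.38 and lay a median of 0.00 from their references, with 15 below. The 18 members under background had a median difference of -0.10 and lay a median of -0.24 from their references, with 16 below. Members above background lay about evenly on both sides of other probe sets of their level, and members under it lay mostly below theirs.

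**Figure D2:**
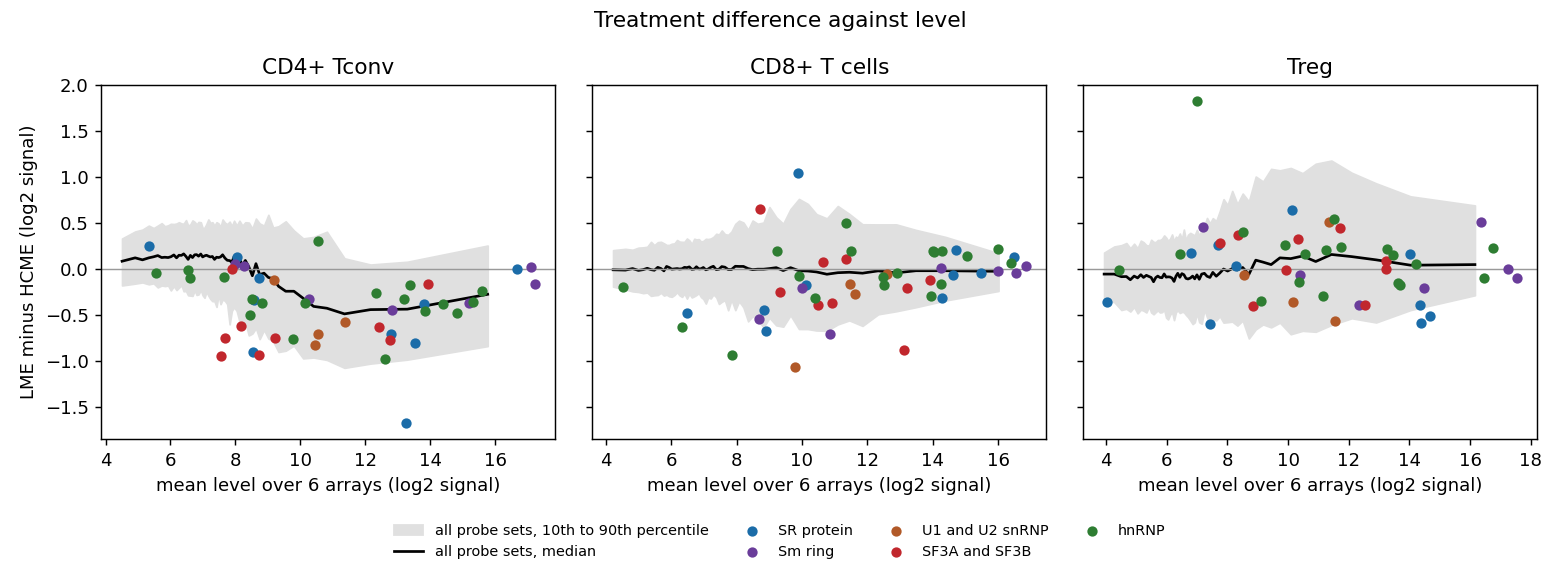
The LME minus HCME difference (y axis, log2 signal) is plotted against mean level over 6 arrays (x axis, log2 signal), with the running median of all probe sets (black line) and their 10th to 90th percentile range (grey) and the 49 members as points coloured by group. In CD4+ Tconv the line lies above 0 at low and below 0 at high level, in Treg it runs the other way, from as low as -0.14 at low level to as high as 0.16, and in CD8+ T cells it lies nearest to 0, down to -0.06.

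With all arrays, the SF3A and SF3B subunits, which hold the U2 snRNP on the branch point, had the lowest group median in CD4+ Tconv. All 9 had a lower LME mean, with a median difference of -0.75, and 7 of them had an unadjusted p below 0.05. Their median distance from probe sets of similar level was -0.59, with 8 of 9 below. For 5 of 9 the higher of the 2 group means was above background. The distances were largest for dim subunits, -1.08 for Sf3a1, -0.87 for Sf3b3 and -0.69 for Sf3a2, all under background. Among them was also Sf3b2 at -0.90, with an HCME mean of 9.19 above background and an LME mean of 8.25 under it. The brightest lay nearer their references or above them, at -0.31 for Sf3b1, -0.17 for Sf3b5 and 0.26 for Sf3b6. Sf3b3, a large scaffold subunit of SF3B, had signals of 8.06, 8.10 and 8.02 on HCME arrays 1 to 3 and 7.49, 7.26 and 7.18 on LME arrays 1 to 3. The arrays were tightly grouped and did not overlap, although all 6 values were under the background threshold of 8.80, and the difference was -0.75 (SE 0.19, 95% interval -1.17 to -0.33, adjusted p = 0.0823). Sf3b1, the subunit that clamps the branch point helix and is recurrently mutated in human chronic lymphocytic leukemia, was at 13.39, 13.32 and 12.75 with HCME-sEVs and at 12.20, 12.11 and 12.84 with LME-sEVs. Here LME array 3 lay above HCME array 3, so the groups overlapped, and the difference was -0.77 (SE 0.26, adjusted p = 0.153). Sf3b2, another SF3B subunit, was at 9.19, 9.44 and 8.95 with HCME-sEVs and at 8.42, 7.50 and 8.84 with LME-sEVs, a difference of -0.94 (SE 0.31, adjusted p = 0.149). All LME values of Sf3b2 were lower, the nearest by 0.11, and without LME array 2 the difference was -0.56.

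Among the other subunits, Sf3a1, the largest of SF3A, differed by -0.95, Sf3a3 by -0.76 and Sf3a2 by -0.62, with adjusted p between 0.141 and 0.175. Sf3a1 was at -0.58 without HCME array 2. Sf3b5 differed by -0.64, and by -0.41 without LME array 1. Sf3b6, the small subunit that touches the branch point adenosine, was at 14.13, 14.02 and 13.92 against 13.38, 14.76 and 13.43, so that LME array 2 was the highest of the 6, and differed by -0.17 (adjusted p = 0.817). Sf3b4 differed by -0.01 (95% interval -0.42 to 0.41). Without single arrays the median of the 9 subunits ran from -0.77 to -0.58. Without HCME array 2, HCME array 3 or LME array 2, the median of the U1 and U2 proteins was lower, at -0.60, -0.80 and -0.76. That of the SF3A and SF3B subunits was then -0.58, -0.77 and -0.63.

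The differences of the SR proteins ran from -1.68 to 0.25 in CD4+ Tconv. Srsf5, an SR protein whose transcript responds to growth signals, had the lowest difference of all 49 members. Its signal was 14.24, 14.60 and 13.45 on HCME arrays and 13.16, 11.29 and 12.81 on LME arrays. The groups did not overlap, LME array 2 lay far below the rest, and the difference was -1.68 (SE 0.44, 95% interval -2.65 to -0.71, adjusted p = 0.0912). Without LME array 2 it was -1.11 (adjusted p = 0.0769). Srsf3, the smallest SR protein and also a factor in RNA export, was at 13.99, 14.24 and 13.57 against 12.74, 13.57 and 13.07, a difference of -0.81 (SE 0.26, adjusted p = 0.141). Its lowest HCME and highest LME value were equal. Srsf9 differed by -0.91 (adjusted p = 0.160) and Srsf10, an SR protein that becomes a repressor when it loses phosphate, by -0.71 (adjusted p = 0.198), both without overlap. Without HCME array 1 Srsf9 was at -0.56, and without LME array 1 Srsf10 was at -0.38. The LME mean of Srsf9, 8.09, was under background.

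Srsf2 and Srsf1 differed less than these. Srsf2 (SC35), a nuclear speckle protein, was at 16.70, 16.68 and 16.64 against 16.76, 16.23 and 17.04. Its LME arrays lay on both sides of the HCME arrays, and the difference was 0.00 (95% interval -0.50 to 0.51). Srsf1 (ASF/SF2), a founding SR protein that lay near background, differed by -0.10 (95% interval -0.57 to 0.36, adjusted p = 0.825). Srsf11 and Srsf6 differed by -0.38 and -0.34, and Srsf4 and Srsf12 by 0.13 and 0.25, with Srsf12 far under background. Of the 10 SR proteins, 7 had a lower LME mean and 4 had an unadjusted p below 0.05.

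With all arrays, the Sm ring, the shared core of the spliceosomal snRNPs, had the group median nearest to 0 in CD4+ Tconv. The median over its 7 proteins was -0.17, 0 had an unadjusted p below 0.05, and 0 had groups without overlap. Their median distance from probe sets of similar level was 0.02. This rested on LME array 2. Without it all 7 had a lower LME mean, with a median of -0.285, and 2 had an unadjusted p below 0.05. In that setting 5 of 7 lay below probe sets of similar level, and the medians of the SR proteins and hnRNPs were -0.21 and -0.255. Snrpg was at 16.88, 17.19 and 17.20 against 17.05, 17.30 and 16.98, and Snrpe at 17.44, 17.32 and 17.13 against 16.53, 17.75 and 17.11. Both overlapped fully, with differences of 0.02 and -0.17. Snrpb, which encodes the SmB proteins, differed by 0.05 (95% interval -0.45 to 0.56) and lay under background, and Snrpd3 had the lowest value, -0.44 (adjusted p = 0.376).

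The 4 proteins particular to U1 and U2 had a median difference of -0.64 and lay a median of -0.20 from probe sets of similar level, with 3 of 4 below. Snrpa1, which binds the U2 RNA together with Snrpb2, was at 10.80, 11.15 and 10.68 against 9.75, 10.18 and 10.21. Every LME value was lower, and the difference was -0.83 (SE 0.22, 95% interval -1.31 to -0.35, adjusted p = 0.0912). Snrpc, which steadies U1 on the start of the intron, was at 11.08, 10.97 and 10.68 against 10.33, 10.03 and 10.24, a difference of -0.71 (SE 0.20, adjusted p = 0.108) without overlap. Snrpb2 differed by -0.57 with overlap (-0.28 without LME array 1 and -0.93 without LME array 2), and Snrpa, which binds a stem-loop of the U1 RNA, by -0.12. All 4 had a lower LME mean.

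Of the 19 hnRNPs, 18 had a lower LME mean in CD4+ Tconv, with a median of -0.33, and their median distance from probe sets of similar level was -0.08. Hnrnpd (AUF1), which also directs decay of AU-rich transcripts, had the lowest adjusted p of all members. It was at 13.41, 13.15 and 12.76 with HCME-sEVs and at 11.77, 12.21 and 12.40 with LME-sEVs. The groups did not overlap, and the difference was -0.98 (SE 0.24, 95% interval -1.51 to -0.45, adjusted p = 0.0769). Hnrnpc, which binds uridine tracts and shields cryptic exons, was at 10.16, 10.38 and 9.88 against 9.75, 8.47 and 9.91, a difference of -0.76 (SE 0.34, adjusted p = 0.256). LME array 2 was low, and without it the difference was -0.31. Hnrnpul1 and Hnrnpa2b1, a binder of RNA sorted into vesicles, differed by -0.51 and -0.48 without overlap (adjusted p = 0.238 and 0.245). Hnrnpul1 had both group means under background, 8.69 and 8.18, and its groups were 0.05 apart.

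Several abundant hnRNPs did not separate. Hnrnpk, a binder of cytidine-rich RNA, was at 15.49, 15.53 and 15.45 against 15.52, 14.26 and 15.60. Without LME array 2 its difference of -0.36 became 0.07. Hnrnpu, a nuclear scaffold protein that binds chromatin, was at 12.80, 12.51 and 12.05 against 12.48, 11.41 and 12.68, a difference of -0.26 (95% interval -0.98 to 0.45). Hnrnph2 was the single hnRNP with a higher LME mean, 0.30 (adjusted p = 0.588). Hnrnpll, the regulator of Ptprc exons, lay between 6.23 and 6.95 on all 6 arrays, under background, and differed by -0.10 (adjusted p = 0.846).

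Promoter sequences are shown for the 4 members with the lowest adjusted p in CD4+ Tconv. RefSeq promoters (GRCm38.p6) matched 43 of the 49 members, leaving out Snrpb, Snrpd1, Sf3b4, Sf3b5, Hnrnpll and Hnrnpul2. Each run is the 250 bases before the annotated start, 5′ to 3′ on the gene's strand, with matches to the searched motifs in capitals.
Hnrnpd, chr5:99978939-99979188, minus strand: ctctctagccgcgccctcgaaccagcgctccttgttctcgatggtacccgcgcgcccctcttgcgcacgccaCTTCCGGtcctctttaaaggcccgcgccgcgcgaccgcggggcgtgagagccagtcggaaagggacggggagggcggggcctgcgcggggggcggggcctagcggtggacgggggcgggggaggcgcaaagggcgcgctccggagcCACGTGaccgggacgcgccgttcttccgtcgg
Sf3b3, chr8:110846804-110847053, minus strand: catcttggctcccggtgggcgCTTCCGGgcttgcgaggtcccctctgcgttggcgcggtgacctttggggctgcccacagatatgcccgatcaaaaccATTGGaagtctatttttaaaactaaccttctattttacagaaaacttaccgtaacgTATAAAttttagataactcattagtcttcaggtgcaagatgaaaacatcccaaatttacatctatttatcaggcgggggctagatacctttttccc
Snrpa1, chr7:66060086-66060335, plus strand: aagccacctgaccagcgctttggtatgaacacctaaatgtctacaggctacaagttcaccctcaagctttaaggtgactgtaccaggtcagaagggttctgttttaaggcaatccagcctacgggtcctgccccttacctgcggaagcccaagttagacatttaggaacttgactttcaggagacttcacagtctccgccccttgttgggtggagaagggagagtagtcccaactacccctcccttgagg
Srsf5, chr12:80945249-80945498, plus strand: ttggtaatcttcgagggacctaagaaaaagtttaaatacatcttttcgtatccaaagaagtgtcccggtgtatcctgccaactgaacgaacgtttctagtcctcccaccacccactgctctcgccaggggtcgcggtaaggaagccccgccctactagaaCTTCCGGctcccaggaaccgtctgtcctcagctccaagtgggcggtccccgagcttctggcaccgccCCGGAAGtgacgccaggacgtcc

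Capitals mark the ETS motif CCGGAAG (read on the other strand in Hnrnpd and Sf3b3 and on both strands in Srsf5), the E-box CACGTG in Hnrnpd, and a TATA box (TATAAA) and a CCAAT box (on the other strand) in Sf3b3. Snrpa1 held none of the 7 motifs searched on both strands, which were these 4 with CRE (TGACGTCA), YY1 (AAGATGGCG) and the palindromic NRF1 consensus. No motif is contained in another. The ETS motif was in 14 of 43 member promoters (32.6%), against 7.83% of 27025 genes in the same window. It was in 8 of the 16 members with a promoter and an unadjusted p below 0.05 in CD4+ Tconv (Hnrnpd, Sf3a1, Sf3a2, Sf3a3, Sf3b2, Sf3b3, Snrpc and Srsf5) and in 6 of the other 27. The CCAAT box was in 46.5% of member promoters and 37.5% of all, the E-box in 6.98% and 6.86%, the TATA box in 14% and 14.3%, CRE in 4.65% and 1.77%, NRF1 in 2.33% and 0.877%, and YY1 in 0% and 0.71%. A match describes the letters only.

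In CD8+ T cells the members moved in both directions and lay close to the rest of the array. A lower LME mean was seen for 32 of 49 (50.6% of all probe sets, 52.4% of those above background), and the median difference was -0.09, against -0.02 for probe sets of similar level. The count of members called was 0 (0% of all probe sets) by limma, with a lowest adjusted p of 0.940. An unadjusted p below 0.05 was found for 2 lower members (2.23% of all probe sets, 3.64% of those above background) and 1 higher member (1.99% and 3.41%). All LME arrays were lower for 3 members (4.25% and 4.8%) and higher for 2 (4.35% and 4.77%).

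The higher member was Srsf6, an SR protein that regulates its own level through a poison exon. It was at 9.73, 9.01 and 9.29 with HCME-sEVs and at 10.59, 10.38 and 10.19 with LME-sEVs. The groups were separated by 0.46, and the difference was 1.04 (SE 0.23, 95% interval 0.48 to 1.60, adjusted p = 0.940). Sf3b6 was at 13.86, 13.18 and 13.65 against 12.65, 12.87 and 12.53, a difference of -0.88 (SE 0.22, 95% interval -1.42 to -0.34, adjusted p = 0.940). Snrpd1, a Sm ring protein, was at 11.15, 11.45 and 11.04 against 10.57, 10.70 and 10.26, a difference of -0.70 (SE 0.20, adjusted p = 0.998). Neither overlapped, and over the arrays left out singly the differences stayed between -1.07 and -0.73 for Sf3b6, -0.80 and -0.58 for Snrpd1 and 0.88 and 1.24 for Srsf6.

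The largest negative mean of the subset was less steady. Snrpa was at 10.78, 8.98 and 11.21 against 8.74, 10.07 and 8.95, with HCME array 2 among the LME values, and its difference of -1.07 had a 95% interval of -2.58 to 0.44. Hnrnpr, -0.94, had a range of 6.99 to 9.54 on HCME arrays and 6.63 to 7.96 on LME arrays. Srsf9 had 1 low HCME array, 7.74 against 10.05 and 9.97, and a difference of -0.68. Sf3b3, which was tightly grouped in CD4+ Tconv, spread from 7.30 to 9.45 with HCME-sEVs and from 7.64 to 9.93 with LME-sEVs and differed by 0.65 (95% interval -1.12 to 2.43).

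Several abundant members differed little in CD8+ T cells, although Sf3b6 above is abundant too. Srsf3 was at 14.63, 14.62 and 14.72 against 14.56, 14.58 and 14.63, a difference of -0.07 (95% interval -0.42 to 0.28). Sf3b1 differed by -0.12 (95% interval -0.66 to 0.41), Hnrnpd by 0.19 (-0.20 to 0.59) and Srsf5 by -0.31 (-0.87 to 0.24). Srsf1, Hnrnpc and Hnrnpa2b1 differed by -0.18, -0.17 and -0.17, Hnrnpk and Hnrnpu by 0.07 and -0.04, and Snrpb by -0.54 with overlap. Srsf2 differed by 0.13 with every LME array higher, the nearest by 0.02 (95% interval -0.22 to 0.48). Among the highest means, Hnrnph2 differed by 0.50, Hnrnpl by 0.22 and Srsf10 by 0.21, each with overlap. Hnrnpll stayed between 4.26 and 4.77, far under background. The SF3A and SF3B subunits had a median of -0.21, which became 0.01 without LME array 3, and the Sm ring and hnRNPs each had a median of -0.04.

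In Treg, members were balanced around 0. A lower LME mean was seen for 23 of 49 (56.6% of all probe sets, 46.3% of those above background) and the median difference was 0.03, against 0.05 for probe sets of similar level. The count of members called was 0 (0% of all probe sets), with a lowest adjusted p of 0.800. An unadjusted p below 0.05 was found for 1 lower member (3.3% of all probe sets, 3.56% of those above background) and 0 higher members (2.82% and 6%), and the arrays did not overlap for 3 lower (7.53% and 5.71%) and 3 higher members (4.72% and 7.73%). Intervals were widest in this subset, with a median distance of 0.78 from the difference to its bound, against 0.52 in CD4+ Tconv and 0.58 in CD8+ T cells. Without HCME array 3, 31 of 49 had a lower LME mean and the median was -0.07.

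The lower member in Treg was Srsf2. It was at 14.88, 14.77 and 15.14 with HCME-sEVs and at 14.44, 14.36 and 14.45 with LME-sEVs. All LME values were lower and close together, and the difference was -0.51 (SE 0.20, 95% interval -0.997 to -0.03, adjusted p = 0.800). Srsf3 had LME values of 14.29, 14.15 and 14.07 under HCME values of 14.83, 14.31 and 14.54, a difference of -0.39 (adjusted p = 0.820). Srsf10 and Srsf4 differed by -0.59 and -0.60 with overlap, and Srsf10 by -0.24 without HCME array 3, where it was highest (15.37).

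The largest value in any subset was that of Hnrnpr, which coats nuclear transcripts, in Treg. It was at 5.94, 6.79 and 5.57 with HCME-sEVs and at 8.58, 9.41 and 5.79 with LME-sEVs. LME arrays 1 and 2 were high while LME array 3 lay among the HCME arrays, and the difference of 1.83 had an interval from -0.29 to 3.94 (adjusted p = 0.800). LME array 3 and all HCME arrays were under background. Srsf5 was at 9.66, 9.09 and 10.71 against 10.43, 10.29 and 10.65, a difference of 0.64 (SE 0.41, adjusted p = 0.834), which was 1.08 without HCME array 3. Snrpd2, a Sm ring protein, was at 16.28, 16.34 and 15.68 against 16.62, 16.72 and 16.50, so all LME values were higher, by 0.51 on average (SE 0.25, adjusted p = 0.800). Without HCME array 3 this was 0.30.

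Further Treg differences of this size came with overlap. Hnrnpul1 differed by 0.55 and Snrpc by 0.51, and Snrpb2 by -0.56, a value that rested on HCME array 3 (12.78 against 11.23 and 11.52) and was -0.10 without it. The same array gave the lowest values of Sf3a1 (10.34), Sf3a2 (6.18) and Sf3a3 (8.82), whose differences were 0.45, 0.36 and 0.32. Without it the median of the 9 SF3A and SF3B subunits went from 0.09 to -0.12. Sf3b1 and Sf3b2 differed by -0.40 and -0.41, Hnrnpk (every LME array higher) by 0.22, and Hnrnpu, Hnrnpc and Hnrnpa2b1 by 0.23, 0.16 and 0.06. Srsf1 differed by 0.03, Snrpb by 0.45, and Hnrnpll stayed between 4.26 and 4.64 with a difference of -0.02.

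**Figure D3:**
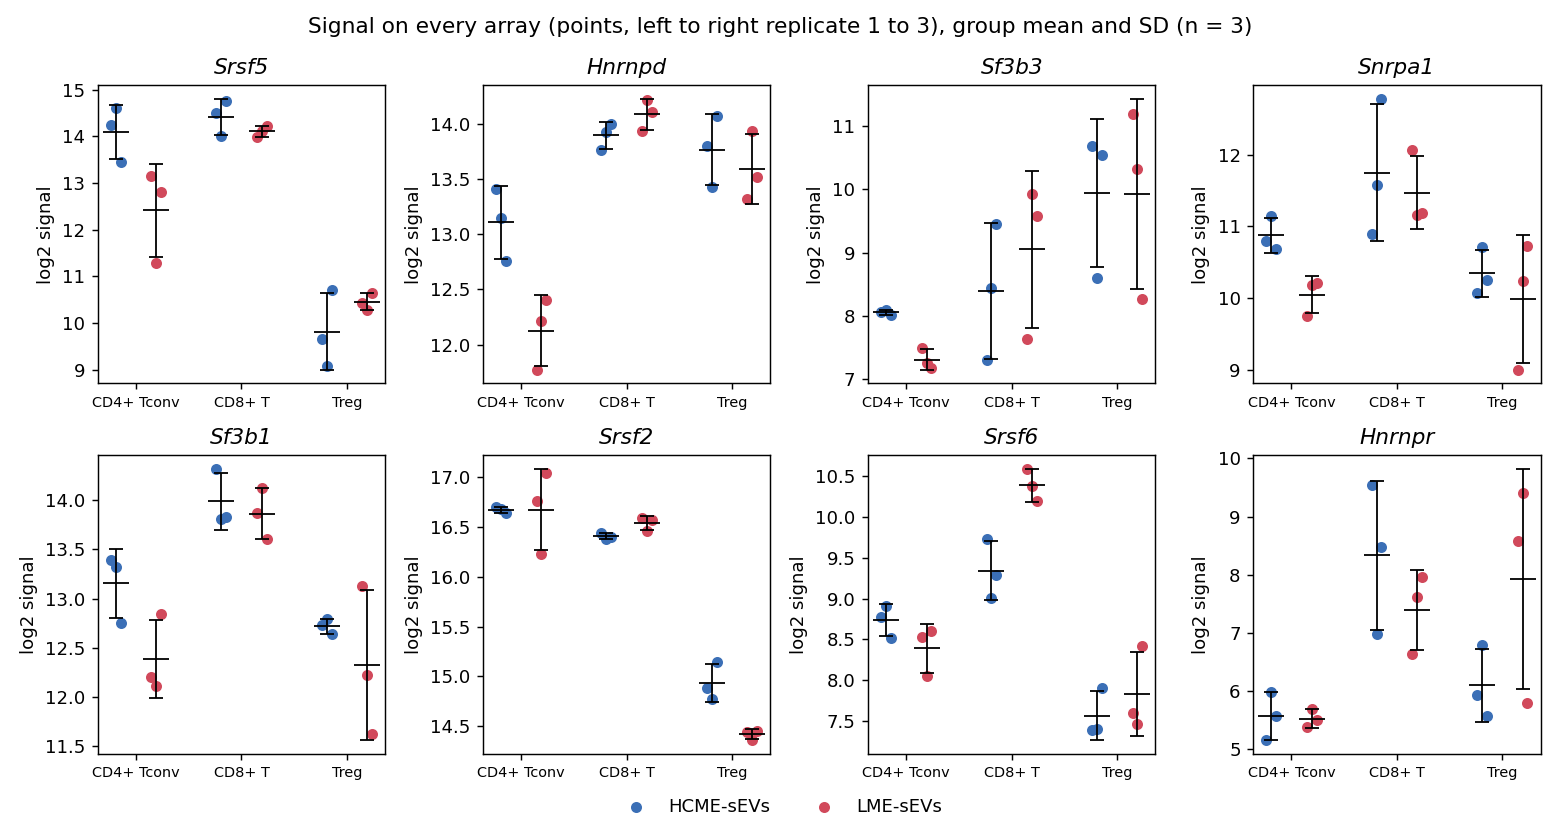
The log2 signal (y axis) on every array is plotted for 8 members in the 3 subsets with HCME-sEVs (blue) and LME-sEVs (red), with the group mean and SD (n = 3) as bars. Srsf5, Hnrnpd, Sf3b3 and Snrpa1 are separated in CD4+ Tconv, Srsf6 in CD8+ T cells and Srsf2 in Treg, while Hnrnpr in Treg has 2 high LME arrays and 1 among the HCME arrays, and levels are not to be compared between subsets, which may not have been normalized together.

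The treatment differences were then compared between subsets as contrasts over all 18 arrays. The arrays of CD4+ Tconv form a numbered block of their own in the titles, apart from those of CD8+ T cells and Treg. A difference between such blocks and a difference between subsets therefore cannot be told apart. Between CD4+ Tconv and CD8+ T cells 0 of 49 members were called (0% of all probe sets) and 6 had an unadjusted p below 0.05 (6.94%), 5 of them negative (3.39%) and 1, Srsf12, positive (3.55%). Among these 6, Srsf6 was the lowest at -1.39 (SE 0.38, adjusted p = 0.527), followed by Srsf5 at -1.36 and Hnrnpd at -1.17, while Sf3b3 had a contrast of -1.40 with an interval of -3.63 to 0.82. Between CD4+ Tconv and Treg 0 were called (0.0135% of all probe sets) and 5 had an unadjusted p below 0.05 (15.3%), all negative (6.71%). For Snrpc this contrast was -1.22 (SE 0.31, 95% interval -1.88 to -0.56, adjusted p = 0.124) and for Srsf5 -2.31 (SE 0.64, 95% interval -3.67 to -0.96, adjusted p = 0.134). Between Treg and CD8+ T cells 0 were called (0.00901%) and 4 had an unadjusted p below 0.05 (7.54%), of which Srsf2 was negative (3.89%) and 3 were positive (3.65%), with Hnrnpr at 2.76 (SE 1.05, adjusted p = 0.550).

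Some members had the same sign throughout. A lower LME mean in all 3 subsets was found for 10 of 49 members (Hnrnpll, Hnrnpul2, Sf3b1, Sf3b2, Sf3b5, Snrpa, Snrpa1, Snrpb2, Snrpd1 and Srsf3), and a higher mean in all 3 for 0. Among all probe sets 10.8% were lower in all 3 and 10.5% higher. Taken singly, 42, 32 and 23 of the 49 members were lower in CD4+ Tconv, CD8+ T cells and Treg. Whether 10 is more than these counts would give together was not tested. The 10 include Hnrnpll, under background in each subset, and Snrpa, which was at -0.07 in Treg. The SF3B subunits Sf3b1, Sf3b2 and Sf3b5 and the U2 proteins Snrpa1 and Snrpb2 are among the 10, with differences of -0.77, -0.12 and -0.40 for Sf3b1 and -0.83, -0.28 and -0.36 for Snrpa1 in CD4+ Tconv, CD8+ T cells and Treg. A lower mean in CD4+ Tconv with a higher mean in Treg was found for 24 members, Srsf5 and Snrpc among them. By themselves, 42 members were lower in CD4+ Tconv and 26 higher in Treg. The share of all probe sets with this pair of signs was not taken.

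The wider splicing machinery was read from 8 lists of other genes, of which 165 of 182 were measured. In CD4+ Tconv 137 of the 165 had a lower LME mean, against 42.8% of all probe sets and 71.6% of those above background. Their median was -0.40, against 0.07 and -0.31, and they were not set against probe sets of similar level. Of the 165, 5 fell (0.982% of all probe sets fell) while 0 rose (0.0766%). These shares include dim probe sets, and the share that fell in this fit among probe sets above background was not taken. Phf5a, a small subunit of SF3B that the name rule does not cover, fell from 9.95 ± 0.26 to 8.65 ± 0.49 (SD, n = 3), a difference of -1.30 (SE 0.26, adjusted p = 0.0463). Snrnp70, the U1-70K protein that SR proteins bind, fell from 10.06 ± 0.28 to 8.84 ± 0.18, a difference of -1.22 (adjusted p = 0.0374). The second-step factors Prpf18 and Slu7 fell with differences of -1.26 and -1.15 (adjusted p = 0.0431 for both), and Scaf4, an SR-related protein that binds RNA polymerase II, with one of -1.33 (adjusted p = 0.0374). After quantile normalization, cyclic loess, centring above background or with the receptor covariate 0 of these 5 calls remained. Over these settings the difference ran from -1.26 to -1.01 for Phf5a and from -1.05 to -0.56 for Snrnp70, and in the first 3 of them the adjusted p of the 5 genes was between 0.0551 and 0.149. With a mean-variance trend or the replicate block 0 were called either (adjusted p between 0.0530 and 0.0619). Among probe sets above background only, 12 genes of these lists were called, where 9.86% of all tested were. Dimmer genes of the lists were not tested there, so the 12 are not a share of 165. With array weights 18 were called, where 4.12% of all probe sets were. Both counts include these 5. Leaving out either of HCME arrays 1 and 2, or either of LME arrays 1 and 3, also left 0, while 4 remained without HCME array 3 and 5 without LME array 2.

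By list, the branch site and U2AF factors had the lowest median in CD4+ Tconv, -0.73 over 9 genes, all with a lower mean. Among them the splicing factor Sf1, which first binds the branch point, differed by -0.87 (adjusted p = 0.0786). The medians were -0.42 for other snRNP proteins (36 genes, 2 fell), -0.41 for the Prp19 and catalytic factors (25, 2 fell), -0.41 for SR-related proteins and kinases (27, 1 fell), -0.35 for snRNP assembly (13), -0.32 for Lsm proteins (13), -0.32 for exon junction factors (8) and -0.24 for other RNA-binding regulators (34). The median of all CD4+ Tconv probe sets above background was -0.31. In CD8+ T cells and Treg 0 of 165 passed, with medians of -0.07 and 0.11, against -0.02 and 0.05 for all above background. Ptprc, the target of Hnrnpll, differed by -0.71 in CD4+ Tconv (16.20 ± 0.07 to 15.49 ± 0.19, adjusted p = 0.0977), by 0.25 in CD8+ T cells and by 0.61 in Treg. The array reads whole transcripts and not exons here, so exon use was not measured.

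Cell type marker lists are given beside these values. The 6 measured pan-T-cell markers, Ptprc, Cd3d, Cd3e, Cd3g, Cd247 and Lat, were lower in 6 of 6 cases in CD4+ Tconv (median -0.69) and higher in 6 of 6 in Treg (median 0.61), and 0 were called. The log2 of their summed signal was 18.45 to 18.59 on HCME and 17.92 to 18.15 on LME arrays in CD4+ Tconv. The 11 measured B-cell markers had 1 member above background in CD4+ Tconv and a log2 summed signal of 11.12 to 11.24 on HCME and 11.23 to 11.30 on LME arrays. Of the other lists, those of CD8 (10.30 to 10.71 against 9.78 to 9.94), CD4 (11.41 to 11.49 against 10.73 to 11.29) and NK cells (10.80 to 11.16 against 10.32 to 10.64) were lower on all LME arrays of CD4+ Tconv. Those of plasma cells (10.88 to 11.28 against 11.318 to 11.501) and platelets (11.66 to 11.89 against 11.899 to 12.003) were higher. In CD8+ T cells the lists of CD8 (17.49 to 17.55 against 17.34 to 17.47) and NK cells (14.20 to 14.30 against 13.64 to 13.97) were lower on all LME arrays. In Treg the lists of Treg (15.24 to 16.66 against 16.96 to 17.42), CD8 (9.94 to 10.77 against 10.98 to 12.22), dendritic (9.80 to 10.19 against 10.22 to 11.65) and plasma cells (12.73 to 13.48 against 13.48 to 14.82, apart in the third decimal) were higher on all LME arrays. These sums weight the brightest genes most, and the genes of a list could differ. In CD4+ Tconv, Cd4 and Zbtb7b of the CD4 list were higher, by 0.06 and 0.30. Only Cd40lg of that list was lower, with a mean of 10.55 with HCME-sEVs and 9.55 with LME-sEVs. Of the CD8 list there, Runx3, Cd8b1 and Cd8a differed by -1.22, -0.53 and 0.03. In Treg, Runx3, Cd8b1 and Cd8a of the CD8 list differed by 2.58, 0.55 and 0.04. Of the 8 dendritic genes 4 were lower and 4 higher, with Bst2 at 2.05 and Itgax at -0.63. Of the 7 plasma cell genes 3 were lower and 4 higher, with Xbp1 at 1.16 and Sdc1 at -1.57. The part of any of these lists in the differences of the splicing genes was not tested.

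The CD4+ Tconv values were also read after other normalizations. These bring arrays to a common scale and so remove a shared shift whatever its source, which was not tested. The median of the 49 members was -0.37 as deposited, and quantile normalization brought it to -0.13, cyclic loess to -0.0906 and centring of the arrays on probe sets above background to -0.0767, while that of all probe sets above background went from -0.31 to -0.03, 0.01 and -0.02. The number of members with a lower mean went from 42 to 35, 31 and 30. The SF3A and SF3B subunits were at -0.62, -0.58 and -0.46, with 8, 8 and 7 of 9 lower. They lay at -0.63, -0.59 and -0.58 from probe sets of similar level, a distance that such rescaling changes little by construction. The median of the Sm ring was 0.01, 0.03 and 0.12 in these settings, so its sign turned. With the receptor median as a covariate, which differed between the groups without overlap, the median of all members was -0.0274 (25 of 49 lower) and that of SF3A and SF3B -0.08 (5 of 9 lower). Srsf5 was at -1.23, -1.21, -1.39 and -1.75 in these 4 settings.

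**Figure D4:**
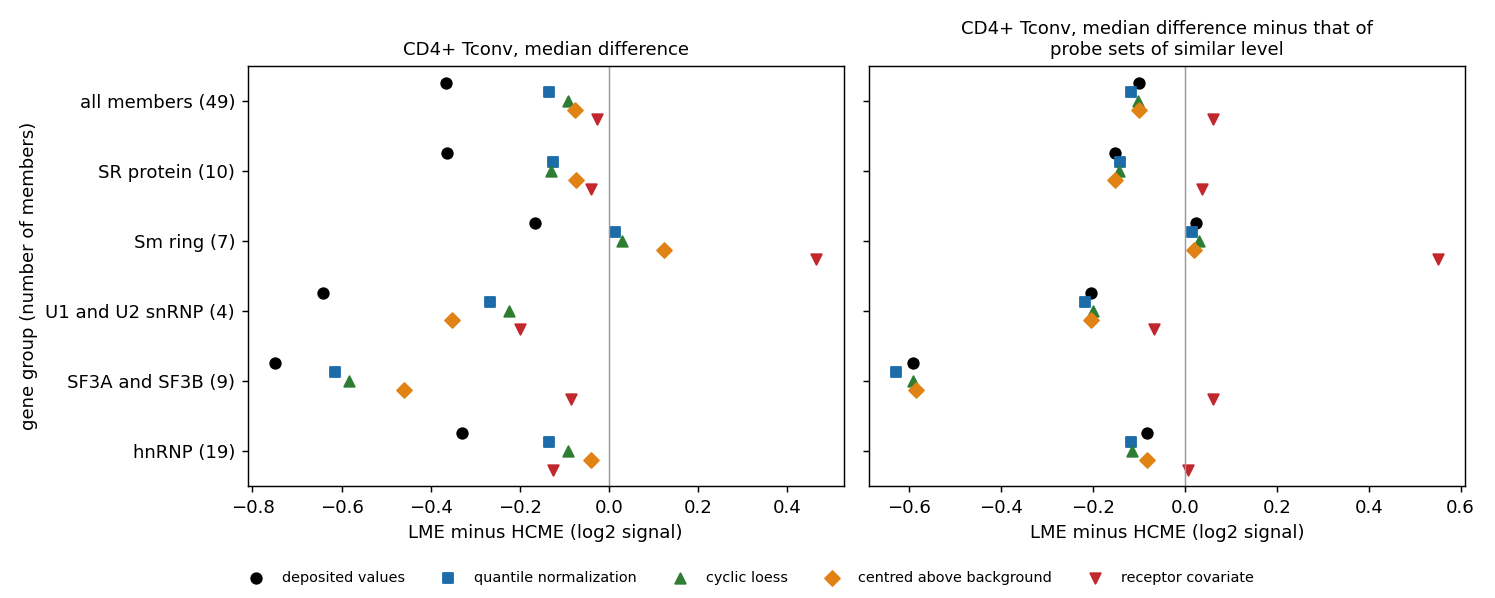
The median LME minus HCME difference (x axis, log2 signal) of each gene group in CD4+ Tconv is plotted as it stands (left) and relative to probe sets of similar level (right) for the deposited values and 4 alternatives (symbols). Relative to similar levels, SF3A and SF3B lie at -0.59 on deposited values and at 0.06 with the receptor covariate, while all members lie at -0.10 and 0.06.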

How the data were processed

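Clariom S arrays were hybridised with RNA of 3 sorted T-cell subsets, 3 for each subset and treatment. The authors used the Transcriptome Analysis Console on the scans, and the deposited log2 signals of 22206 probe sets were used as they stood. The normalization and genome build are not given in the sources used here, and the labels and methods name different labelling kits. Groups and replicate numbers came from the titles. The annotation gave 1 symbol for 19572 probe sets and none for 2634.

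R 4.3.3 and limma 3.58.1 were used. The 6 arrays of each subset were fitted by lmFit and eBayes, and p-values were adjusted over all probe sets by the Benjamini-Hochberg method. Contrasts between subsets used all 18 arrays. Gene groups are described by counts and medians beside 500 probe sets of similar level, with no set test. Members, gene lists and their grouping by role were chosen with earlier results of these data known. Named genes were any member called, the 5 highest and 5 lowest members (higher group mean above background) in each subset, a fixed set of well-known members, up to 3 genes of each other list, and Ptprc. Members named beyond these (Sf3b3, Sf3a1, Snrpc and others in the account of their group) were chosen after their values were seen. Alternatives were other normalizations, a filter on dim probe sets, limma options, the methods' t-test, a replicate block and leaving out single arrays. The fit was tested on simulated data with independent noise, no shared shift and differences larger than that of any member. It therefore does not show how often differences of the sizes seen here would be called. The number of arrays limits the precision.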

Additional observations from a re-analysis of the deposited data

Results flagged for a closer look

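Srsf2 had opposite signs in a pair of subsets on every array. Its LME minus HCME difference was -0.51 in Treg, where all 3 LME values were lower than all HCME values, and 0.13 in CD8+ T cells, where all 3 were higher. The contrast of these differences, Treg minus CD8+ T cells, was -0.65 (SE 0.26, limma over 18 arrays) and did not pass (adjusted p = 0.60).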

How the results depend on the processing

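In CD4+ Tconv, 2 of the 33 members tested were called among probe sets above background only (Hnrnpd and Srsf5, where 9.86% of all tested were called). With array weights 5 members were called (Hnrnpd, Sf3b3, Snrpa1, Srsf3 and Srsf5, where 4.12% of all probe sets were). In the reported fit 0 were called. The CD4+ Tconv median of members was -0.13 after quantile normalization, -0.0906 after cyclic loess, -0.0767 with centring above background and -0.0274 with the receptor covariate. Without single arrays it ran from -0.49 to -0.29 in CD4+ Tconv, -0.14 to -0.07 in CD8+ T cells and -0.07 to 0.05 in Treg, and 0 members were called. The other 162 of 168 alternatives of the 12 main results kept their side of the threshold, or stayed within the spread between replicates. Of 761 values of named members under alternatives, 6 passed the threshold that did not before, and 56 changed sign while called in neither setting. The replicate numbers did not pair the samples (correlations of same-numbered arrays from -0.10 to 0.14), and with the replicate block 0 members were called in each subset and 2 of all probe sets in CD4+ Tconv, against 235. The number of arrays and, for members near the receptor background, signal over background limit these results.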
